A study of Homo sapiens with 6 samples.

Results

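The genes described here are 10 components of the unfolded protein response (UPR) of the endoplasmic reticulum (ER), taken by symbol from a table of 15651 genes. They are HSPA5, HSP90B1, XBP1, ATF6, ERN1, HERPUD1, SEL1L, PDIA4, HYOU1 and CALR, and all 10 had values and passed the filter on low counts. RNA was sequenced from MDA-MB-231, an established human triple-negative breast cancer cell line, in 2 groups of 3 biological replicates. One group received DMSO, the solvent, and the other received BRL-50481, an inhibitor of the cAMP-degrading enzyme PDE7A, and both groups share the same line and growth medium. The treatment text of the labels and the methods of the study give 50 μM for 72 h, whereas the treatment tag of the treated samples gives 5 μM and 48 h.

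The UPR adjusts the folding capacity of the ER to the load of newly made secretory and membrane proteins. Unfolded proteins draw the chaperone HSPA5 (BiP) away from 3 membrane sensors, ERN1 (IRE1α), ATF6 and EIF2AK3 (PERK). IRE1α removes a short intron from XBP1 mRNA, so that the active XBP1 transcription factor is made, ATF6 is cut in the Golgi to release a transcription factor, and PERK slows translation while favouring that of ATF4. XBP1 and ATF6 raise the genes of ER chaperones, of oxidative folding and of ER-associated degradation (ERAD), which returns misfolded proteins to the cytosol for destruction. Secretory cells and many cancer cells keep this system active without added stress.

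The deposited values are normalized counts, that is, gene counts scaled by a size factor particular to the library, and the libraries held 30750573 to 33446984 reads on genes. DMSO replicate 1 scattered most around its group, with a residual SD of 0.141 on the log2 scale against 0.079 to 0.119 in the other 5 libraries. Of the 5 mesenchymal markers listed for this line, VIM, CD44, AXL and ZEB1 had means of at least 4496 normalized counts in each group, whereas SPARC had 14.0 in DMSO and 33.8 in BRL-50481. Of the luminal and epithelial markers, PGR lay between 0 and 7.75 and ESR1 had no value. The others were detected, with means in DMSO and BRL-50481 of 1677 and 1914 for ERBB2 and 764 and 682 for EPCAM. GATA3 had 189 and 278, and CDH1 had 38.2 and 99.8. The summed level of the mesenchymal markers ranged from 137737 to 142105 over the DMSO libraries and from 183352 to 185284 over the treated ones, that of the 5 luminal and epithelial markers with values, out of 6 listed, from 2564 to 2741 and from 2942 to 3054, and that of the 4 leukocyte, endothelial and fibroblast markers with values, out of 9 listed, was 683 to 748 and 905 to 1024. The part of these markers in the results was not tested.

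BRL-50481-treated cells had less mRNA of the UPR's effectors and more of 2 of its sensors. Of the 10 genes, 7 were lower (HSPA5, HSP90B1, HYOU1, CALR, HERPUD1, SEL1L and XBP1), 2 were higher (ERN1 and ATF6), and PDIA4 did not pass the test. Log2 of the normalized count with 1 added was tested with limma, with a threshold of 0.05 on the p-value adjusted (Benjamini-Hochberg) across 15246 genes, of which 29.8% were lower and 28.9% were higher. The median log2 fold change of the 10 genes was −0.39, against 0.015 over all genes. The groups did not overlap for any of the 10, with the treated libraries beneath the controls in 8 and above them in 2. Over all genes tested, 32.3% were separated downwards and 31.9% upwards. The two-sided exact permutation test gave p = 0.1 for each of the 10 genes, the smallest p that 3 libraries against 3 allow. In these bulk samples, fewer expressing cells and less RNA per cell cannot be told apart.

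**Figure D1:**
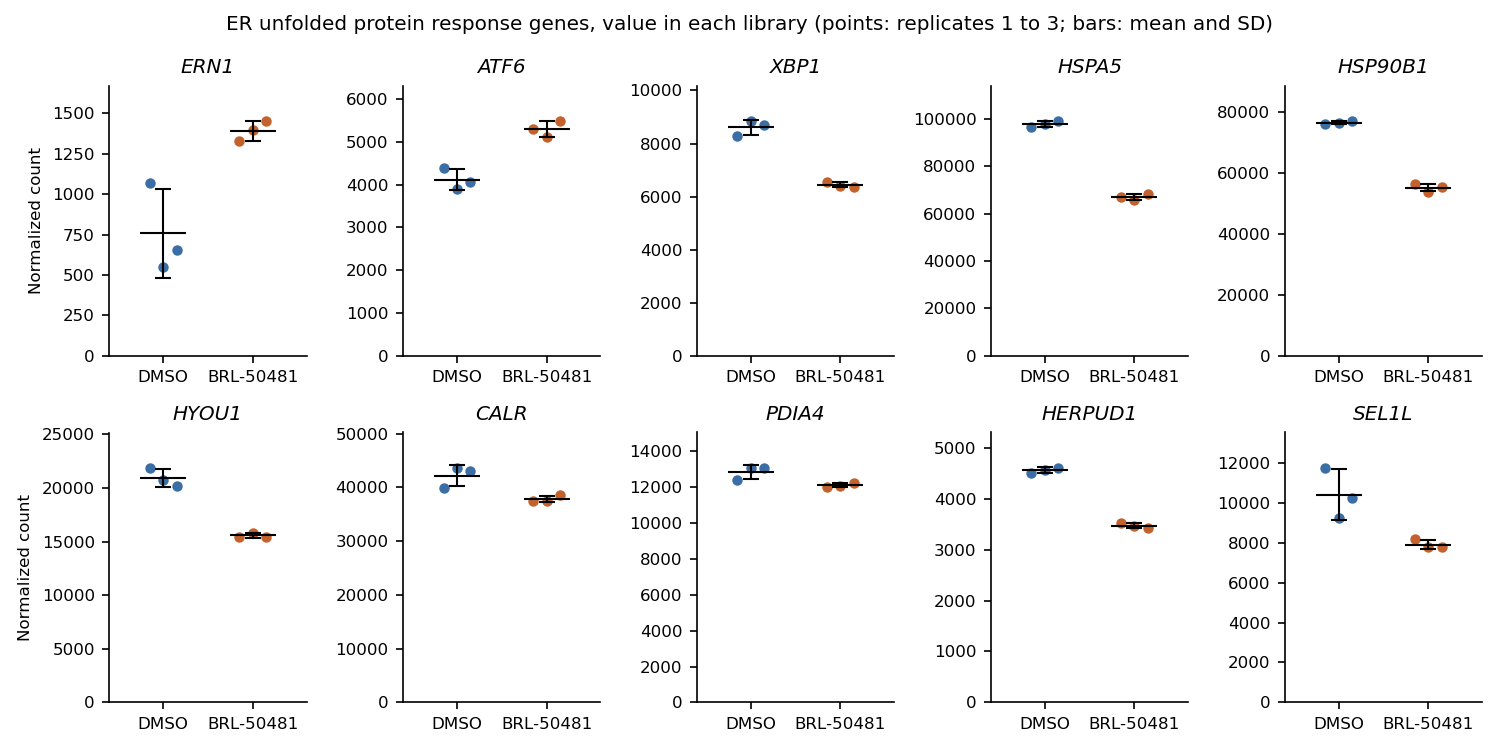
Normalized count (y axis, from 0) of each of the 10 genes in the 3 DMSO and 3 BRL-50481 libraries, with a point per library and the mean and SD of each group in black. ERN1 and ATF6 are higher in all BRL-50481 libraries and the other 8 genes are lower in all of them, PDIA4 by the smallest margin.

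Among the sensors, ERN1 encodes IRE1α, a kinase and endoribonuclease of the ER membrane. Its normalized counts were 1069.6, 549.5 and 657 in DMSO and 1329, 1396 and 1451 in BRL-50481. The groups did not overlap, although DMSO replicate 1 lay far above the other DMSO libraries and nearer to the treated ones. The mean rose from 759 ± 275 to 1392 ± 61.2 (SD, n = 3 each), and the log2 difference was 0.93 (standard error 0.171, limma adjusted p = 0.000414). Without DMSO replicate 1 it was 1.21, and with each of the other libraries left out it was between 0.73 and 0.97. ERN1 lies on chromosome 17 of hg38 (64039080 to 64130819, minus strand), and no other gene annotated on its strand shares its exons.

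ATF6 encodes the membrane-bound precursor of a transcription factor and lies on chromosome 1 (161766298 to 161977574, plus strand). It had 4384, 3893 and 4068 normalized counts in DMSO and 5297, 5124 and 5482 in BRL-50481. All treated libraries were above all control libraries, by a margin wider than the range within either group. The log2 fold change was 0.37 (standard error 0.0548, limma adjusted p = 7.73e-05). It fell to 0.19 (adjusted p = 0.000216) when each library was corrected for transcript length and GC content, a correction added after the data had been seen. The canonical ATF6 transcript has 7470 bases, against a median of 3148 over the genes in the table, and longer transcripts tended to have higher log2 fold changes (Spearman's rho 0.174 over genes, which are not independent replicates). ERN1, whose canonical transcript has 7895 bases, went from 0.93 to 0.79 with the same correction. The part of length in the results for ATF6 and ERN1 was not tested beyond this correction.

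XBP1, the transcription factor whose mRNA is the substrate of IRE1α, went the opposite way to ERN1. XBP1 had 8293, 8842 and 8693 normalized counts in DMSO and 6568, 6417 and 6375 in BRL-50481. The treated libraries were within a narrow band, well below the lowest control. XBP1 mRNA fell by 0.42 log2 units (standard error 0.0458, limma adjusted p = 5.46e-06), to 75.0% of the DMSO mean. Counts per gene add spliced and unspliced XBP1 mRNA together, so the activity of IRE1α was not measured. The gene is on chromosome 22 (28794555 to 28800597, minus strand).

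The ER chaperones include the most abundant of the 10 genes. HSPA5, on chromosome 9 (125234853 to 125241382, minus strand), encodes BiP, the HSP70 of the ER lumen. Its normalized counts of 96377, 97862 and 98916 in DMSO compared with 66997, 65911 and 68263 in BRL-50481. Replicates differed by a few percent and the groups by far more, with the BRL-50481 mean at 68.6% of the DMSO mean. HSPA5 had a log2 fold change of −0.54 (standard error 0.0418, limma adjusted p = 2.37e-07, 95% interval −0.63 to −0.45). This was the largest fall of the 10 genes by point estimate, but not with quantile normalization, where HSPA5 was at −0.34 and XBP1 at −0.39.

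HSP90B1 (GRP94) is the HSP90 of the ER and helps integrins and Toll-like receptors to fold. It had 76188, 76372 and 77013 normalized counts in DMSO and 56265, 53906 and 55273 in BRL-50481. The controls were nearly level, and each treated library lay below them. HSP90B1 fell by 0.47 log2 units (standard error 0.0417, limma adjusted p = 7.79e-07), or by 0.28 with quantile normalization. Its interval of −0.56 to −0.38 overlapped that of HSPA5. The gene is on chromosome 12 (103930107 to 103953931, plus strand), where the microRNA gene MIR3652 overlaps its exons.

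HYOU1 (GRP170) is a large HSP70 relative that exchanges the nucleotide of BiP, on chromosome 11 (119044188 to 119057227, minus strand). The DMSO libraries held 21898, 20752 and 20187 normalized counts and the BRL-50481 libraries 15472, 15835 and 15442. The controls spread over a wider range than the treated libraries and stayed above them. The log2 fold change was −0.43 (standard error 0.0453, limma adjusted p = 4.01e-06).

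CALR and PDIA4 moved least. CALR, calreticulin, is a calcium-binding lectin that retains glycoproteins in the ER until they fold, on chromosome 19 (12938578 to 12944489, plus strand). Its normalized counts were 39942, 43656 and 43009 in DMSO and 37459, 37491 and 38538 in BRL-50481. DMSO replicate 1 was close to the treated libraries. CALR fell by 0.16 log2 units (standard error 0.0464, limma adjusted p = 0.0106). This call was lost without DMSO replicate 3 (−0.14, adjusted p = 0.0595) and without a variance trend (adjusted p = 0.0542), and with quantile normalization the direction turned (0.03, adjusted p = 0.594).

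PDIA4 (ERp72), a protein disulfide isomerase with several thioredoxin-like domains, is on chromosome 7 (149003062 to 149028662, minus strand). It had 12394, 13095 and 13075 normalized counts in DMSO and 12038, 12083 and 12239 in BRL-50481. The lowest control stood only slightly above the highest treated library. The log2 fold change was −0.08 (standard error 0.0438, limma adjusted p = 0.115), with a 95% interval of −0.18 to 0.01. Without DMSO replicate 1 it was −0.11 and passed the threshold (adjusted p = 0.00597), as it did after the correction for length and GC content (−0.10, adjusted p = 0.00395).

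HERPUD1 and SEL1L belong to ERAD. HERPUD1 is a ubiquitin-like membrane protein that organizes the degradation complex, on chromosome 16 (56932142 to 56944864, plus strand). HERPUD1 had 4494, 4564 and 4607 normalized counts in DMSO and 3523, 3456 and 3421 in BRL-50481. Both groups were tight and far apart for their spread. HERPUD1 fell by 0.39 log2 units (standard error 0.0464, limma adjusted p = 9.8e-06).

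SEL1L is the adaptor of the ubiquitin ligase SYVN1 (HRD1), on chromosome 14 (81471547 to 81533853, minus strand). Its values were 11756, 9235 and 10225 normalized counts in DMSO and 8172, 7769 and 7780.4 in BRL-50481. The controls were widely spread, with DMSO replicate 1 highest, and still did not overlap with the treated libraries. SEL1L fell by 0.39 log2 units (standard error 0.0712, limma adjusted p = 0.000406), and by 0.30 without DMSO replicate 1. Its canonical transcript has 7919 bases. After the correction for length and GC content the fall was 0.57 (limma adjusted p = 5.37e-10).

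**Figure D2:**
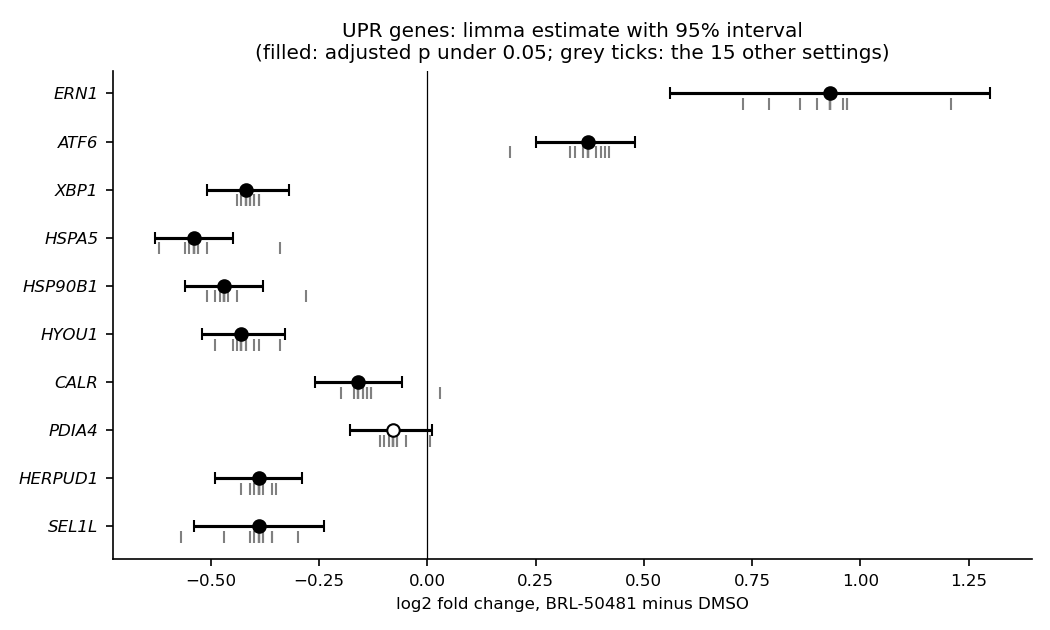
Log2 fold change of BRL-50481 over DMSO (x axis) for the 10 genes, as the limma estimate with its 95% interval (filled points, adjusted p under 0.05), and as grey ticks the estimates under the 15 other settings. ERN1 has the widest interval, 0.56 to 1.30, and CALR and PDIA4 are the genes with ticks on both sides of 0.

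Levels were compared between genes per kilobase of the canonical GENCODE transcript. In DMSO, HSP90B1 stood first with 27507 ± 156 normalized counts per kilobase, followed by HSPA5 (24922 ± 325) and CALR (22199.9 ± 1044) (SD, n = 3 each). Then came XBP1, PDIA4 and HYOU1, between 4807 and 4555, whose neighbouring ranges overlapped. HERPUD1 (1596), SEL1L (1314), ATF6 (551) and ERN1 (96.1) followed without overlap. HSP90B1 ranked 57 and ERN1 9581 of 15090 genes.

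In BRL-50481 the order of these levels changed at the top, where CALR (19899.7 ± 323 normalized counts per kilobase) and HSP90B1 (19823 ± 426) overlapped and HSPA5 (17102 ± 300.3) was below both (SD, n = 3 each). PDIA4 (4380.2), XBP1 (3603) and HYOU1 (3389) no longer overlapped. ATF6 (709.7) and ERN1 (176) were still last. Per kilobase, both sensors were scarcer than every chaperone gene of the 10 in both groups. Together, the 10 genes took 0.850% to 0.859% of all normalized counts in the DMSO libraries and 0.675% to 0.690% in the BRL-50481 libraries.

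Promoter sequences of the 10 genes were searched for exact matches to the ER stress elements through which the UPR acts. The ER stress response element (ERSE), CCAAT and CCACG with 9 bases of any kind between them, is bound by ATF6 together with the CCAAT-binding factor NF-Y. ERSE-II, ATTGG and CCACG with 1 base of any kind between them, joins the same parts in another arrangement. Both were searched for on both strands from 250 bases before to 50 bases after each start site in RefSeq's promoter windows (GRCh38.p14), of which 12 belong to the 10 genes. ERSE was found in HSPA5, HSP90B1, XBP1 and CALR and ERSE-II in HERPUD1 and HYOU1. Of all 35116 windows, 0.0769% held ERSE and 0.0541% held ERSE-II. The 10 genes were chosen as UPR genes and these are elements of the UPR, so the matches are no test of enrichment. The 6 genes with an element were all lower in BRL-50481 (median log2 fold change −0.42), within the limits given for CALR, beside 29.8% of all genes tested. Of 24 other tested genes with an element, 12 were lower, 6 were higher and 6 did not pass (median log2 fold change −0.20). Any part of the elements in the falls was not tested. The other 4 of the 10 genes, without an exact match in these windows, were ERN1 and ATF6 (higher), SEL1L (lower, −0.39) and PDIA4 (not called). SEL1L thus fell as much as HERPUD1 (−0.39), which has a match. Copies that differ from an element at a fixed letter were not searched for, so these genes may hold such copies. The RefSeq start of ERN1 lies 675 bases inside the GENCODE gene and those of PDIA4 172 and 3353 bases. The window of ERN1 therefore does not reach the GENCODE start, and a missing match there says nothing of the sequence before it.

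The sites are shown for their bases between the fixed letters and their places before the start. Each is written 5′ to 3′ in the direction of the element, with its fixed letters in capitals. Starts are those of RefSeq, and that of HSP90B1 lies 303 bases inside the GENCODE gene, so both of its sites fall within the gene as GENCODE annotates it.
HSPA5, 66 to 48 bases before the start (chr9:125241391-125241409, minus strand): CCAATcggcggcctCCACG
HSP90B1, 194 to 176 bases before the start (chr12:103930216-103930234, plus strand): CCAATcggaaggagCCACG
HSP90B1, 89 to 71 bases before the start (chr12:103930321-103930339, minus strand): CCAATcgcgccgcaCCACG
XBP1, 52 to 34 bases before the start (chr22:28800603-28800621, minus strand): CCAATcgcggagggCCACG
CALR, 225 to 207 bases before the start (chr19:12938384-12938402, minus strand): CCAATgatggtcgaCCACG
HERPUD1, 117 to 107 bases before the start (chr16:56932025-56932035, plus strand): ATTGGgCCACG
HYOU1, 185 to 175 bases before the start (chr11:119057380-119057390, plus strand): ATTGGaCCACG
HYOU1, 79 to 69 bases before the start (chr11:119057274-119057284, plus strand): ATTGGaCCACG

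The longer windows of HSPA5 and HYOU1 show how these elements are placed in a promoter, from 250 to 41 bases before the start and on the strand of the gene. The capitals mark the exact match to ERSE in HSPA5 and, read on the opposite strand, both exact matches to ERSE-II in HYOU1. Copies that differ from the element at a fixed letter were not searched for and would stand in lower case.
HSPA5 (chr9:125241384-125241593, minus strand): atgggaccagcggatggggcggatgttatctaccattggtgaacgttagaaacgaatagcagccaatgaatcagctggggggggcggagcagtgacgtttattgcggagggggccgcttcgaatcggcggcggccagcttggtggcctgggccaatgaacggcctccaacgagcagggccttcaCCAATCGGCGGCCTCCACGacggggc
HYOU1 (chr11:119057246-119057455, minus strand): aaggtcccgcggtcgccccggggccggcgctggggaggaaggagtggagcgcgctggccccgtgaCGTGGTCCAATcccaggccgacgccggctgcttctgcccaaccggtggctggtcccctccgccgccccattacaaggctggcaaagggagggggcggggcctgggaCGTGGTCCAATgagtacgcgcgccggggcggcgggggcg

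Since BRL-50481 acts on a cAMP phosphodiesterase, the cAMP response element TGACGTCA was also searched for. It was in 1.85% of all windows and in none of the 12 windows of the 10 genes, which says only that these letters do not occur there. The core of the XBP1-binding UPR element, TGACGTGG, was in 0.729% of all windows and in HYOU1, where it overlaps the distal ERSE-II. A match to any of these motifs is a description of the sequence and not a measured binding site.

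The other genes of the pathway were compared as lists that were written from general knowledge and that share some of the 10 genes. The lists were chosen with earlier results of these data known, so they are no independent support for the 10 genes. Their counts stand beside the 29.8% of all genes tested that were lower and the 28.9% that were higher. In the list of sensors and transcription factors, 7 of 13 genes were higher and 4 lower (median log2 fold change 0.33). ATF6B, the homologue of ATF6, had the largest rise of the list, going from 1711 ± 38.0 to 3653 ± 149 normalized counts (SD, n = 3 each), or by 1.09 log2 units (standard error 0.0533, limma adjusted p = 5.35e-09). MBTPS1 and MBTPS2, the Golgi proteases that release active ATF6, were higher too, by 0.48 and 0.71 on the log2 scale. EIF2AK3, which encodes PERK, the remaining sensor, had means of 968 and 958 and did not pass the test (log2 fold change −0.01, limma adjusted p = 0.878). The sensors, ATF6B and the proteases were thus higher or not called, a grouping made after the values were seen. Of the CREB3 family genes of the list, CREB3 was lower (−0.32) and CREB3L1 was not called (0.02). CREB3L2 (0.33) and CREB3L4 (0.61) were higher.

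In the list of the PERK branch, 7 of 10 genes were lower and 2 higher, beside 29.8% and 28.9% of all genes tested. The median was −0.40 in log2 units, and EIF2AK3, which is itself in the list, was the gene that did not pass. The name of the list is a grouping from general knowledge, and whether PERK acted on these genes was not tested. ATF4, the transcription factor of this branch, fell from 12259 ± 847 to 9587 ± 163 normalized counts (SD, n = 3 each, log2 fold change −0.35, limma adjusted p = 8.41e-05). Its partner DDIT3 (CHOP) fell by 0.19 log2 units (limma adjusted p = 0.0115), a call that 4 of the 15 other settings did not keep. ATF3 (−1.02), CHAC1 (−0.96), the asparagine synthetase gene ASNS (−0.86) and PPP1R15A (−0.72), whose product restores translation, fell more. TRIB3, a pseudokinase that ATF4 and CHOP induce, and SESN2, an inhibitor of mTORC1, went against the others and rose by 0.75 and 0.77 on the log2 scale. TRIB3 had 3334 to 3796 normalized counts in the controls and 5858 to 6209 in the treated libraries, and SESN2 1082 to 1135 and 1795 to 1953.

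Of 18 ER chaperones and their cochaperones, 15 were lower and 0 were higher, beside 29.8% and 28.9% of all genes tested. The other 3 did not pass, and the median log2 fold change was −0.31. Leaving out the 4 that belong to the 10 genes, 11 of 14 were lower. The largest falls among genes with a mean of at least 100 normalized counts were those of SDF2L1 (from 576 ± 80.3 to 286 ± 33.7, or 49.7% of the DMSO mean) and MANF (from 4023 ± 319 to 2203 ± 80.4, log2 fold change −0.87, SD and n = 3 each). SDF2L1 is a partner of ER J-domain cochaperones and MANF is secreted under ER stress. SIL1, DNAJC10 and HSPA13 did not pass the test, with log2 fold changes between −0.01 and 0.02. CANX, calnexin, changed by −0.15 log2 units (limma adjusted p = 0.0191), which turned to 0.05 with quantile normalization, and 5 of the 15 other settings did not keep the call.

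Oxidative folding was less uniform. Of 17 disulfide isomerases and related enzymes, 7 were lower and 3 higher, beside 29.8% and 28.9% of all genes tested. The other 7, PDIA4 among them, did not pass. PRDX4, a peroxiredoxin of the ER, fell by 0.67 on the log2 scale and the oxidase gene ERO1B by 0.46. PDIA3 fell by 0.21 log2 units (limma adjusted p = 0.001), whereas P4HB, the most abundant isomerase gene of the list by normalized count, had means of 31022 and 31146. TMX4 (0.79), QSOX1 (0.41) and ERO1A (0.12, limma adjusted p = 0.0368) rose. ERO1A had means of 8296 in DMSO and 9000.2 in BRL-50481, against 856 and 624 for ERO1B. The number higher was 2 without a variance trend or with the length and GC correction, and 4 with quantile normalization.

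In ERAD, 16 of 27 genes were lower and 3 were higher, beside 29.8% and 28.9% of all genes tested. The other 8 did not pass, and the median log2 fold change was −0.21. UBE2G2, a ubiquitin-conjugating enzyme (−0.49), AUP1, which recruits it to the membrane (−0.45), and VCP, the ATPase that extracts substrates (−0.42), fell by about as much as HERPUD1 and SEL1L. EDEM1, a mannosidase-like protein that marks glycoproteins for degradation, fell by 0.24 on the log2 scale. UBXN4 (0.50), UBE2J1 (0.36) and MARCHF6 (0.24) were the genes that rose, and of these UBE2J1 encodes another conjugating enzyme and MARCHF6 another ligase of the ER membrane. ERAD components of both directions were thus present within the list.

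The machinery that brings proteins into the ER was mostly lower. Of 24 genes of the translocon, the signal recognition particle and the signal peptidase, 19 were lower and 1 was higher (median log2 fold change −0.41). The shares over all genes tested were 29.8% and 28.9%. SSR4 (−0.93), of the translocon-associated complex, and SRPRB (−0.90) had the largest falls, with SEC11C of the signal peptidase also at −0.90, and SRPRA, the other subunit of the signal recognition particle receptor, fell from 14768 ± 135 to 8716 ± 173 normalized counts (SD, n = 3 each). SSR1 and SEC61A1, the pore subunit, fell to 75.0% and 89.3% of their DMSO means. SRP9 was the gene that was higher (0.14, limma adjusted p = 0.0392), a call lost in 4 of the 15 other settings.

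Of 21 genes of N-glycosylation and the calnexin cycle, 12 were lower and 2 higher (median log2 fold change −0.15). The number lower was 7 with quantile normalization, with median centring or without BRL-50481 replicate 3, and 6 without a variance trend. In the main setting, 29.8% of all genes tested were lower and 28.9% higher, so these smaller counts are near the share over all genes. MLEC, malectin, and STT3A, a catalytic subunit of oligosaccharyltransferase, fell to 69.2% and 73.3% of their DMSO means, and GANAB, the catalytic subunit of glucosidase II, rose by 0.23. OST4, a small subunit of oligosaccharyltransferase, was the other gene that was higher (0.20, limma adjusted p = 0.0328), a call that 4 of the 15 other settings did not keep.

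Of 13 genes of COPII export, which carries cargo out of the ER, 5 were lower and 1 higher (median −0.04), beside 29.8% and 28.9% of all genes tested. Without DMSO replicate 1, 4 were higher, and with the length and GC correction 8 were lower. The outer coat genes went different ways, with SEC13 lower (−0.47) and SEC31A higher (0.21). PREB, which activates the GTPase that starts the coat, fell to 74.8% of its DMSO mean, and TFG, which acts at ER exit sites, to 89.5%. The call for TFG was lost without BRL-50481 replicate 2 (adjusted p = 0.0531). SEC23A, of the inner coat, had means of 6013 and 6061 and did not pass.

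**Figure D3:**
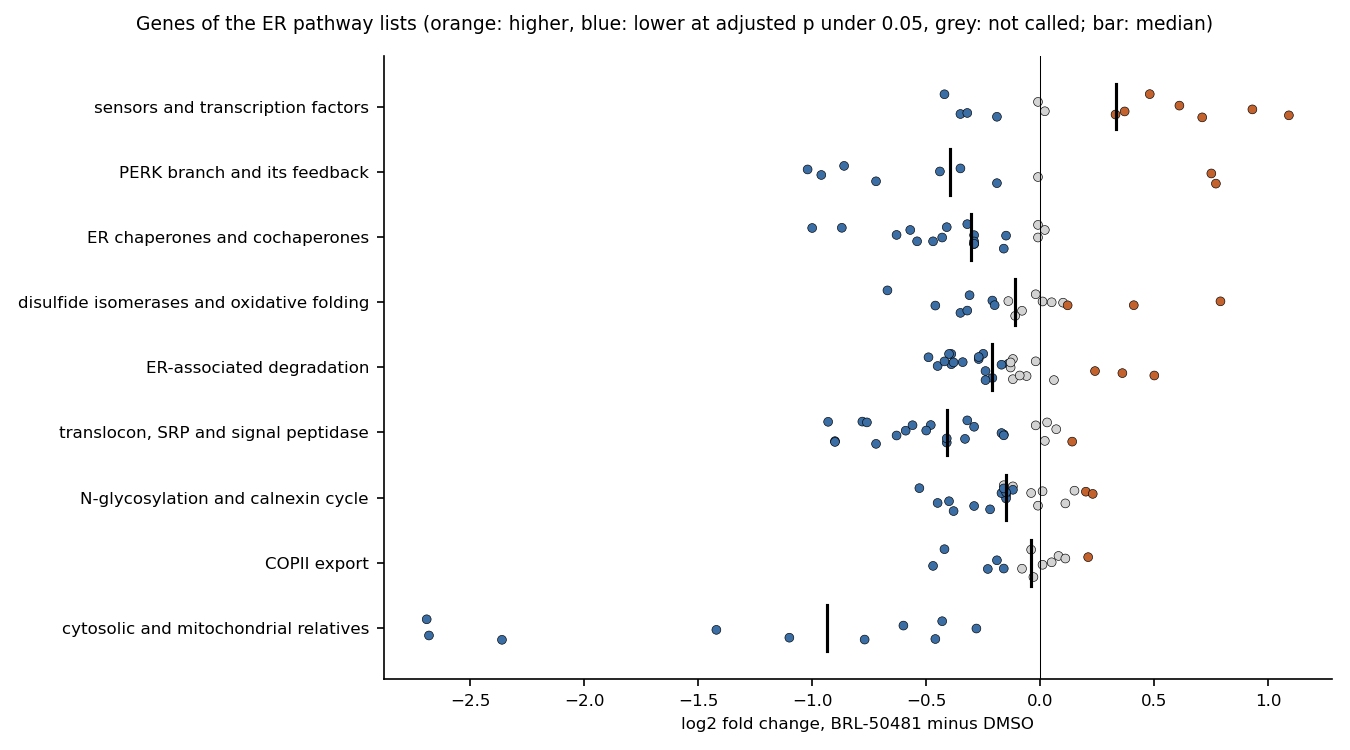
Log2 fold change of BRL-50481 over DMSO (x axis) of each tested gene in 9 lists of ER and related genes, with a point per gene, coloured by the limma call, and a bar at the median of each list. The sensors and transcription factors are the list with a median above 0, and the cytosolic and mitochondrial relatives reach furthest below 0.

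Several of the 10 genes have relatives outside the ER, so the falls were set beside those of the cytosolic forms. HSPA8, the constitutive cytosolic HSP70, fell from 116190.4 ± 1521 to 22609 ± 265 normalized counts and HSP90AA1 from 76535 ± 1984 to 35779 ± 996 (SD, n = 3 each). All 10 genes in the list of relatives were lower (median log2 fold change −0.93), beside 29.8% of all genes tested. HSPA1A (−2.68) and HSPA1B (−2.69) are near-identical paralogs whose reads could be shared, so their separate values are uncertain.

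The ratio of an ER chaperone to its cytosolic relative within a library does not depend on the size factor, and here it is a ratio of normalized counts that were not divided by length. The log2 ratio of HSPA5 to HSPA8 was −0.25, −0.27 and −0.23 in DMSO and 1.58, 1.55 and 1.58 in BRL-50481. HSPA5 thus went from fewer to more counts than HSPA8, although both fell, and the difference of 1.82 on the log2 scale was far larger than the spread within either group. HYOU1 over its cytosolic relative HSPH1 was 1.07, 1.12 and 0.96 in DMSO and 2.01, 2.10 and 2.02 in BRL-50481, a difference of 0.99 log2 units. HSPA4 (log2 fold change −0.60) and HSPA4L (−0.77), also in the list of relatives, fell less than HSPH1 (−1.42). No ratio of HYOU1 to HSPA4 or HSPA4L was taken. HSP90B1 over HSP90AA1 differed by 0.62, with groups again apart. HSP90B1 over HSP90AB1, the constitutive cytosolic HSP90, was −0.15, −0.16 and −0.13 in DMSO and −0.16, −0.22 and −0.19 in BRL-50481. There the groups met, and the difference of −0.04 was close to the SD of 0.031 within BRL-50481. The two-sided exact permutation test over 3 against 3 libraries gave p = 0.1 for the first 3 ratios and p = 0.2 for the last, or 0.133 and 0.2 after Benjamini-Hochberg adjustment over the 4 ratios, and it cannot go below 0.1 in this design.

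**Figure D4:**
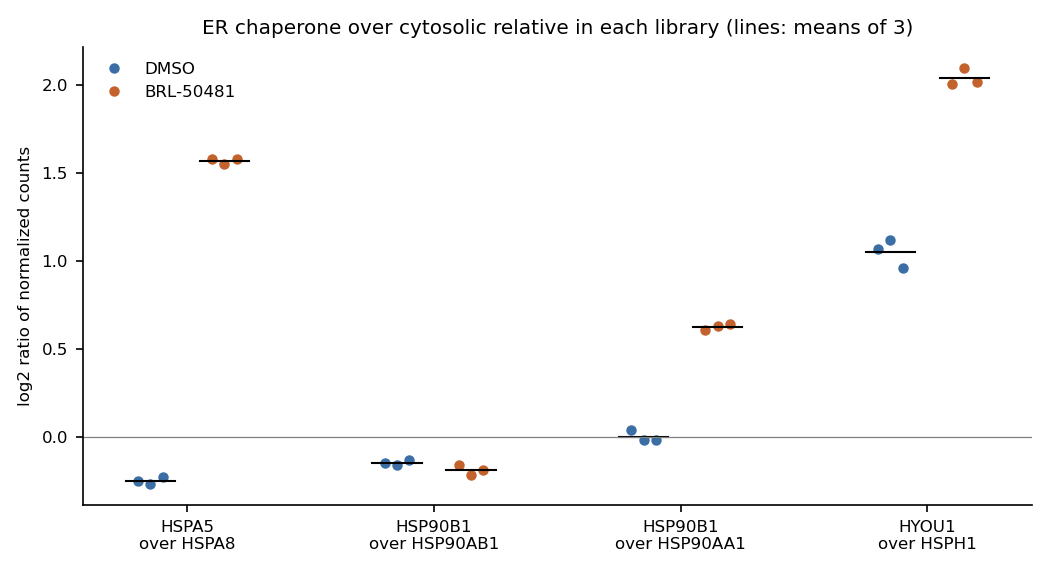
Log2 ratio of the normalized counts of an ER chaperone and a cytosolic relative (y axis) in each library, with a point per library and a line at the mean of 3. The ratio is higher in all BRL-50481 libraries for HSPA5 over HSPA8, HSP90B1 over HSP90AA1 and HYOU1 over HSPH1, and the groups meet for HSP90B1 over HSP90AB1.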

How the data were processed

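RNA-seq values of 6 libraries, 3 from DMSO-treated and 3 from BRL-50481-treated MDA-MB-231 cells, were grouped by their titles. According to the methods and processing notes, the authors aligned single-end reads to hg38 with STAR 2.7.1a, obtained gene-level counts on UCSC gene models with htseq-count set to the reverse strand, and normalized the counts with DESeq2 1.28. The deposited signal of a gene in a library is its count divided by the library's size factor, and every value was a whole multiple of 1 step per library (within a tolerance of 1e-06 steps), from which the reads on genes were summed. The deposited log2 fold changes, test score and p-values are the authors' own comparison and were not used, nor was their mean signal.

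Genes were kept where 3 or more libraries had a normalized count of 4 or more (15246 of 15651). Their log2 values, with a pseudocount of 1, were compared with limma 3.58.1 in R 4.3.3 (lmFit, eBayes with a trend, group as the only term), with Benjamini-Hochberg adjustment across these genes. The procedure was tested on simulated counts before use. Fold changes are on the log2(value + 1) scale. With 3 libraries a group, an exact permutation test cannot reach 0.05.

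The 10 genes and the wider lists were chosen with earlier results of these data known, and no list was tested as a set. SELENOS, UFD1, MARCHF6 and SRPRA were matched by older symbols. Named beside the 10 genes are the 3 most abundant genes of each list, the 2 genes that rose and the 2 that fell most (called, mean of 100 or more), ATF4, DDIT3, EIF2AK3 and the cytosolic relatives. Other genes (MBTPS2, CREB3, CREB3L1, CREB3L2, CREB3L4, SIL1, DNAJC10, HSPA13, ERO1A, MARCHF6, SEC11C, HSPA4, HSPA4L and the marker genes) are named after their values were seen. Positions, lengths and GC content came from GENCODE release 44 on hg38, the build of the files. Alternatives were pseudocounts of 0.5 and 4, other filters, quantile normalization, median centring, no variance trend, a replicate block, leaving out each library, and, added after the data were seen, a loess correction (span 0.5) for transcript length and GC content.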

Additional observations from a re-analysis of the deposited data

How the results depend on the processing

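Over the 15 other settings of each gene, 145 of the 150 estimates for the 10 genes kept their call, and 8 of the 10 genes did so in every setting. The exceptions were PDIA4, which passed without DMSO replicate 1 (−0.11) and with the length and GC correction (−0.10), and CALR, which did not pass without a variance trend (−0.16) or without DMSO replicate 3 (−0.14) and turned to 0.03 with quantile normalization. The estimate for PDIA4, not called, was 0.0049 with quantile normalization. The cause was not tested. CANX also turned with quantile normalization, to 0.05. The number of the 10 genes that were lower lay between 6 and 8, and 2 were higher in every setting. Counts within the wider lists stayed within 1.5 times in 252 of 270 cases. With the replicate number as a block, 4440 genes were higher and 4589 lower, against 4400 and 4546 without it, and 2 and 7 of the 10 genes, as before. Deviations of same-numbered libraries correlated at 0.121, 0.104 and 0.051, the last too low for the numbers to be taken as pairs, although 5 of 6 libraries correlated best with their own number, a hint from the data and not from the design. Without single libraries, 3709 to 4868 genes were higher and 4011 to 4912 lower. The count-based tests that had been listed as alternatives were not run. A control group of 3 libraries with 1 apart limits the precision for ERN1 and SEL1L most.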

Other observations

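Outside the 10 genes, 24 tested genes had an ERSE or ERSE-II in a RefSeq promoter window, and 12 of them were lower, 6 were higher and 6 did not pass, with a median log2 fold change of −0.20. Of all genes tested, 29.8% were lower and 28.9% were higher. Among the 10 genes, all 6 with an element were lower, CALR not in every setting. SEL1L, without an exact match, was lower too. The 12 lower genes, with their log2 fold changes, were RAD9A (−1.11), ZNF143 (−0.97), CAMTA1 (−0.61), SETD3 (−0.54), ERO1B (−0.46), TRIM5 (−0.46), PDIA6 (−0.35), CRELD2 (−0.29), EIF2A (−0.29), SERP1 (−0.29), CANX (−0.15) and SDF2L1, which fell to 49.7% of its DMSO mean. Of these, ERO1B, PDIA6, CRELD2, SERP1, CANX and SDF2L1 encode proteins of the ER. Genes with an element and a higher level were SYNPO (0.68), NAV2 (0.67), NUCB1 (0.60), PLS3 (0.29), TMEM120A (0.23) and SHCBP1 (0.20). These genes were found by sequence, and those named here were picked after their values were seen.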
